A study of Mus musculus with 16 samples.

Results

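Some of the genes expressed in the mouse placenta or the lining of the pregnant uterus belong to 3 gene families. These are the placental prolactins, the pregnancy-specific glycoproteins and the carcinoembryonic antigen-related adhesion molecules. They were read here as every gene symbol made of Prl, a digit, a letter and a number, of Psg and a number, or of Ceacam and a number. This gave 54 of the 24421 genes in each stage table, namely 26 Prl, 13 Psg and 15 Ceacam genes. The libraries were made from C57BL/6 mouse embryos that lack the miR-302 microRNA cluster (KO) and from wild-type embryos (WT). At embryonic day 7.5 (E7.5) RNA came from whole embryos, with 2 KO and 2 WT libraries. At E8.5 it came from sorted Wnt1-Cre+ cells, with 4 KO libraries (KO1 to KO4) and 3 WT libraries (WT1_5s, WT2, WT3), and at E9.5 from sorted Sox10+ cells, with 2 KO and 2 WT libraries. A further E8.5 library, KO4_5s, was not analysed here. The Wnt1 promoter that drives the Cre is active in the dorsal neural tube as well as in the crest, and the labels do not give the allele by which miR-302 was removed. Nothing in the labels says that libraries came from separate embryos or litters, so the p-values measure only the spread between these libraries, which may be technical.

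Trophoblast giant cells line the boundary between the early mouse embryo and the uterus and secrete hormones into the maternal blood. The placental lactogens among them, Prl3d1 to Prl3d3 early and Prl3b1 later in pregnancy, bind the prolactin receptor. Many of their relatives do not bind it and act instead on uterine blood vessels and natural killer cells, and a few are made by the maternal decidua rather than by trophoblast. Psg proteins are secreted by trophoblast and act on immune and vascular cells, in part through TGF-beta. Ceacam1 is a membrane adhesion receptor with many sites of expression, whereas several Ceacam genes that neighbour the Psg genes are expressed in trophoblast.

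Most Prl genes and all 13 Psg genes lie close together, while the Ceacam genes spread over a longer stretch. All Psg and Ceacam genes with a position are on chromosome 7 of GRCm38 (mm10), the Psg genes within 1.75 Mb and the 15 Ceacam genes within 27.0 Mb. Of the Prl genes, 22 lie at chr13:27094190-28151611, within 1.06 Mb, and Prl2c2, Prl2c3 and Prl2c5 lie apart on the same chromosome. Promoter windows of 300 bases, from 250 bases before to 50 bases after the start of the gene, were taken from RefSeq (GRCm38.p6) and found for 44 of the 54 symbols. The windows of the Prl3d genes are shown first because these genes had the highest mean levels per length in the KO libraries at E7.5. They are followed by the next Prl gene and the highest Psg and Ceacam genes among those with a window. Prl8a2 stood above Prl7a1, and Psg22 above Psg29, but neither had a window. Capitals mark GATA motifs (the letters GATA with A or T before them and A or G after them, on either strand, so that TTATCA is a match on the opposite strand) and AP-1 motifs (TGACTCA, whose reverse complement is TGAGTCA, so that each match is read on both strands). No marked GATA and AP-1 motif overlap.
Prl3d1, chr13:27093939-27094238, plus strand: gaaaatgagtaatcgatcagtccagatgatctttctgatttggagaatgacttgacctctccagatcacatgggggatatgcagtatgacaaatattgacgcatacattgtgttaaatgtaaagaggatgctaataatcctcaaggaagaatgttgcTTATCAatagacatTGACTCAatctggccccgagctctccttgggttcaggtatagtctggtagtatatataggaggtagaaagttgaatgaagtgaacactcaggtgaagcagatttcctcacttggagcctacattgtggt
Prl3d2, chr13:27121445-27121744, plus strand: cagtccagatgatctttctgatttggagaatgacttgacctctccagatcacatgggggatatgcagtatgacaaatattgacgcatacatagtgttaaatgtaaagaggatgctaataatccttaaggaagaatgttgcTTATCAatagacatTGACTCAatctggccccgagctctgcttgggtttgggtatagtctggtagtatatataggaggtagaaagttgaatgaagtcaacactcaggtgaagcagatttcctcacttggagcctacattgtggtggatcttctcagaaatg
Prl3d3, chr13:27156544-27156843, plus strand: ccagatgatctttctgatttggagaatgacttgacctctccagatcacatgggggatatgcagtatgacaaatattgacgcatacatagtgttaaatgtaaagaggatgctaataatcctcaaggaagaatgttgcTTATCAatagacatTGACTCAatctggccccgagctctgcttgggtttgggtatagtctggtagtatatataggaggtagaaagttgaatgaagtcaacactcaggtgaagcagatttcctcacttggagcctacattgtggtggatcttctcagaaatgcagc
Prl7a1, chr13:27642444-27642743, minus strand: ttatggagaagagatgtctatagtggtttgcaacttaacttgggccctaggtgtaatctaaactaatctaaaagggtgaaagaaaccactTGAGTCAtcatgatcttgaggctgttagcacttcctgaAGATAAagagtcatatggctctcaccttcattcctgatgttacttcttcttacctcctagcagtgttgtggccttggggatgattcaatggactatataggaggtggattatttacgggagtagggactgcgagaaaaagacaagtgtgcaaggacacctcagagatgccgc
Psg29, chr7:17203227-17203526, plus strand: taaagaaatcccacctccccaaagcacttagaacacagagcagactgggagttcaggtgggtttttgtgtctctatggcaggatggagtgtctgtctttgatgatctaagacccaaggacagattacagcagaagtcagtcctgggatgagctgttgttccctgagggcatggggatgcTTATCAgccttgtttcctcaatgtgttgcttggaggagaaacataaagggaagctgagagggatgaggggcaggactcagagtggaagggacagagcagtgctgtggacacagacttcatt
Ceacam15, chr7:16675656-16675955, minus strand: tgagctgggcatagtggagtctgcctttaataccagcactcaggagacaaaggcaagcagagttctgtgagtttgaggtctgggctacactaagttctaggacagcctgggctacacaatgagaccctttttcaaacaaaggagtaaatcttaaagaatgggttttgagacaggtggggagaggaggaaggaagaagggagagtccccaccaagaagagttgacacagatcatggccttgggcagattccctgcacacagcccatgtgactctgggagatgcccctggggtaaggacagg

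The 3 Prl3d windows were near copies of each other. Where they overlapped, the Prl3d1 and Prl3d2 windows matched at 97.9% of 283 bases, those of Prl3d1 and Prl3d3 at 98.2% and those of Prl3d2 and Prl3d3 at 99.7%. Each held 1 GATA and 1 AP-1 motif in the same setting, with the GATA match starting 93 bases before the start in Prl3d1, 110 in Prl3d2 and 114 in Prl3d3. The Prl7a1 window held both motifs too, in the other order along the strand. Psg29 held 1 GATA motif and no AP-1 motif, and neither was found in the window of Ceacam15. A GATA motif stood in the windows of 32 of 44 members (72.7%), against 29.8% of all 32851 windows. A member counted if any of its windows held the motif, whereas all windows were counted singly. Prl3c1 counted for GATA through 1 of its windows only. An AP-1 motif stood in 8 of 44 (18.2%), against 5.20% of all windows, and both motifs in 7 of 44 (15.9%), against 1.84%. The median GC content was 44.8% in the member windows and 52.7% in all windows. Near copies count separately in these shares, and a match of letters is a description and not a binding site.

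Reads assigned to genes numbered 4912827 to 9184436 per library in the E7.5 stage, 9008784 to 13517860 in the E8.5 stage and 7300598 to 14861728 in the E9.5 stage. A count of 0 allows up to 3 reads in a library, or 0.202 to 0.611 RPM (reads scaled to the library total), and this limit and all intervals below cover counting error only. Reads over Mir302a to Mir302d numbered 0 in KO1 and 0 in KO2 at E7.5, against 14 in WT1 and 25 in WT2. They numbered at most 1 in any later library, so the genotype labels could be checked in this way at E7.5 only. Levels are the deposited normalised counts, which were scaled within a stage and are not comparable between stages. A fold change is the difference of mean log2(value + 1) given as a ratio, which understates the change of low genes. The E7.5 libraries expressed the epiblast gene Pou5f1 (2605 and 789 normalised counts in KO1 and KO2, 1963 and 1557 in WT1 and WT2). Sox10 was read in every sorted library, at 690.1 to 932 in KO and 662 to 1017 in WT at E8.5.

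The E7.5 libraries differed in ways that touch the results below. Genes of the uterine wall differed between libraries, although the labels describe whole embryos. The 16 decidual stroma markers summed to 2011 in KO1 and 3221 in KO2, against 11895 in WT1 and 1196 in WT2, and 14 of the 16 were highest in WT1. The uterine gland and luminal epithelium markers summed to 1781 in KO1 and 1987 in KO2, against 2884 in WT1 and 20308 in WT2, and 8 of 13 tested were highest in WT2. WT1 was thus the library with the most decidual signal and WT2 the library with the most epithelial signal. KO2 carries the code number 237 and the other E7.5 libraries 239. The meaning of this number is not stated in the labels.

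The 3 families were a large transcript class at E7.5 and stood higher in the KO libraries. Together they took 0.735% of all reads in KO1 and 1.24% in KO2, against 0.350% in WT1 and 0.105% in WT2. The Prl genes made up most of this, at 0.694% and 1.18% of reads in KO1 and KO2 and 0.325% and 0.101% in WT1 and WT2. Psg genes stood at 252 and 396 RPM in the KO libraries, against 70.1 and 14.2 in the WT libraries. The Ceacam sum did not separate the genotypes, at 159 and 232 RPM in KO1 and KO2 against 179 and 23.2 in WT1 and WT2. Since these are bulk libraries, fewer cells of a type and less RNA per cell cannot be told apart.

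Of the 54 members, 12 had no read in any E7.5 library, 19 had reads but a mean below 10 normalised counts and were not tested, and 23 were tested (15 Prl, 4 Psg, 4 Ceacam). Every KO library stood above every WT library for 19 of the 23, against 16.1% of all tested genes, and below for 2, against 12.7%. Groups overlapped for Prl8a2 and Ceacam10. Members that reached the minimum only through 1 group had to differ, so these counts describe the tested members and are no test of the families. The median log2 fold change of the 23 was 2.5, against -0.01 for all 12492 tested genes. Leaving out 1 library gave a median of 3.06 over 23 members (KO1 left out) and 2.06 over 21 (KO2 left out). The median was 3.80 over 23 members (WT1 left out) and 1.83 over 24 (WT2 left out). The minimum mean was applied anew in each fit, so the members were not always the same. A positive log2 fold change was seen for 20 of the 23, against 48.9% of all tested genes, one above 1 for 20, against 2.29%, and one above 2 for 19, against 0.376%. The order KO2, KO1, WT1, WT2 from high to low was shared by 18 of the 23, against 6.92% of all tested genes. Per family the medians were 2.47 (Prl), 3.39 (Psg) and -1.33 (Ceacam). Leaving out 1 library moved the fold change of 16 of the 23 members by more than 1.5 times, 14 of them without WT1 and 14 without WT2. The 7 that moved less were Prl3d1, Prl3d2, Prl3d3, Prl4a1, Prl2a1, Ceacam1 and Ceacam2, the last of which was under the minimum without WT1.

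None of the 23 members, and none of the 12492 genes, passed the limma threshold at E7.5, and the smallest adjusted p of any gene was 0.850. An unadjusted limma p below 0.05 was seen for 17 members with KO higher, against 2.18% of all genes, and for 2 with KO lower, against 0.905%. EdgeR called 0 members and 0 genes, with 17 members at an unadjusted p below 0.05 (3.19% of all genes). DESeq2 called 11 members higher in KO (0.160% of all genes) and 0 lower (0.0881% of all genes), with adjusted p-values of 5.7e-06 to 0.0424. Those 11 members were 55.0% of the 20 genes that DESeq2 called higher in KO. The limma count of members was 10 without KO1, 5 without KO2, 7 without WT1 and 0 without WT2. In these fits a genotype with 1 library is assumed to vary like the other. No member is therefore described below as having changed by limma, and the values of the libraries stand in its place.

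**Figure D1:**
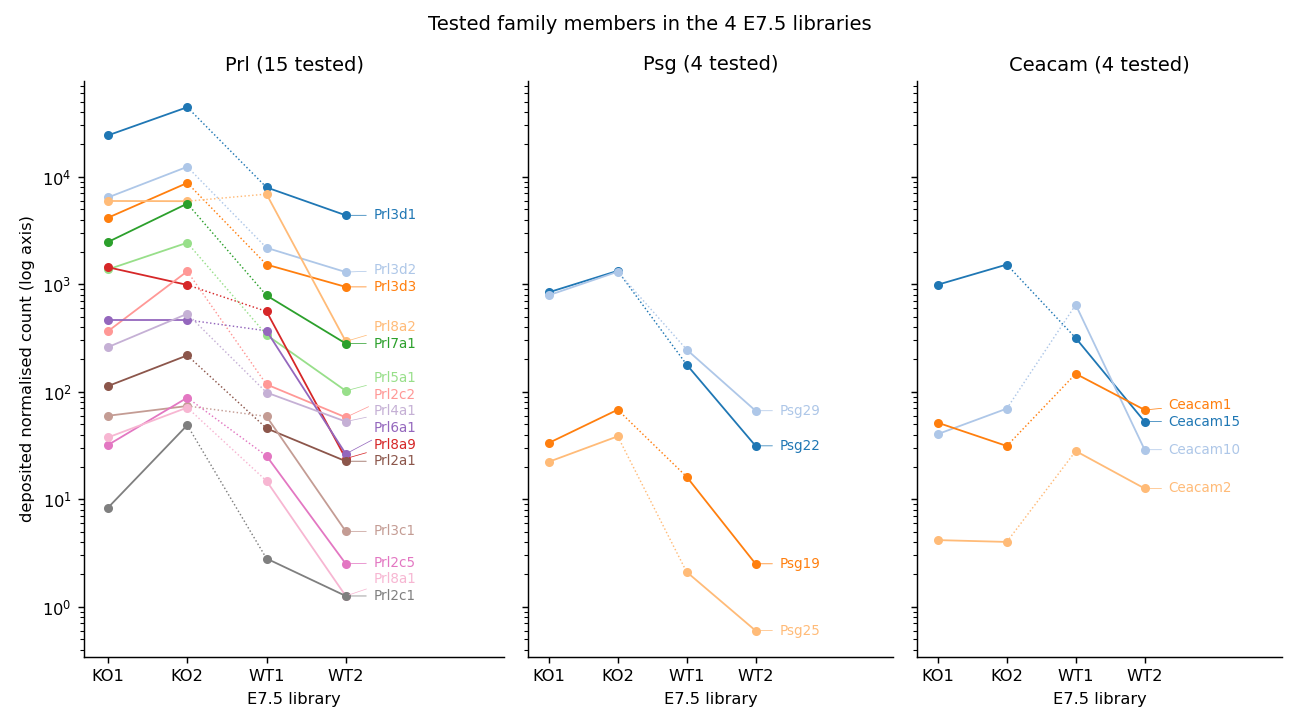
Deposited normalised counts (log axis) of the 23 tested members in the E7.5 libraries KO1, KO2, WT1 and WT2, in a panel per family; each line joins the values of 1 gene, dotted between genotypes, and a value of 0 (Psg25 in WT2) is drawn at 0.6. Most lines are highest at KO2 and lowest at WT2, while Prl8a2, Ceacam10, Ceacam1 and Ceacam2 are highest at WT1.

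Prl3d1, Prl3d2 and Prl3d3 encode placental lactogen I, the main lactogen of early giant cells. Prl3d1 (ENSMUSG00000057170.6, chr13:27094190-27100258, plus strand) was the most abundant member, with 24271 normalised counts in KO1 and 44351 in KO2, against 7965 in WT1 and 4379.5 in WT2. Its log2 fold change was 2.47 ± 0.45 (SE), or 5.55-fold, with an adjusted p of 0.850 by limma and 7.7e-06 by DESeq2. The lowest KO library stood 3.05 times above the highest WT library. Prl3d2 stood at 6422 and 12374 in KO1 and KO2 and at 2183 and 1298 in WT1 and WT2, 5.29-fold (log2 2.40 ± 0.42), and Prl3d3 at 4159 and 8762 in the KO libraries and 1524 and 945 in the WT libraries, 5.03-fold (log2 2.33 ± 0.43). For all 3 genes the groups did not overlap, and both genotypes also differed within themselves, with KO2 over KO1 at 1.83 and WT1 over WT2 at 1.82 for Prl3d1.

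The coding sequences of the 3 Prl3d genes are 97.9% to 98.7% identical, and 39.4% (Prl3d1), 58.0% (Prl3d2) and 77.5% (Prl3d3) of the 50-base words in their transcripts occur in another member's transcript. How reads matching several copies were counted is not stated in the labels, so the split between the copies is uncertain. The share of Prl3d1 in the summed Prl3d reads was 69.6% and 67.7% in KO1 and KO2 and 68.2% and 66.1% in WT1 and WT2. Summed over the copies, Prl3d stood at 34852 in KO1 and 65487 in KO2, against 11671 in WT1 and 6622 in WT2, with a log2 fold change of 2.44. Prl3b1, placental lactogen II of later gestation, had no read in any E7.5 library.

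Further prolactin genes of trophoblast showed the same order of libraries, from KO2 through KO1 and WT1 to WT2. Prl7a1 had 2473 and 5628 normalised counts in KO1 and KO2, against 787 and 281 in WT1 and WT2, a log2 fold change of 2.98 ± 0.56 (7.91-fold; adjusted p 0.850 by limma, 7.7e-06 by DESeq2). Prl5a1 had 1375 and 2434 in the KO libraries, against 338 and 102 in the WT libraries, 3.29 ± 0.56 (9.81-fold; adjusted p 0.850 by limma, 5.7e-06 by DESeq2). Without WT2 the log2 fold change was 2.24 for Prl7a1 and 2.43 for Prl5a1, and without WT1 it was 3.72 and 4.15. Prl5a1 was the member whose lowest KO library stood furthest above the highest WT library among the Prl genes, at 4.07 times. Prl4a1, which acts on uterine natural killer cells, had 260.2 and 531 in KO1 and KO2, against 98.4 and 52.8 in WT1 and WT2 (5.10-fold, log2 2.35 ± 0.46). Prl2a1 had 113 and 218 in the KO libraries and 45.7 and 22.6 in the WT libraries (4.75-fold, log2 2.25 ± 0.51).

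Prl2c2 encodes proliferin, a hormone that acts on blood vessels of the uterus. It had 366 and 1319.8 normalised counts in KO1 and KO2, against 117 and 57.8 in WT1 and WT2, a log2 fold change of 3.06 ± 0.61 (8.35-fold; adjusted p 0.865 by limma, 7.7e-06 by DESeq2). KO2 stood 3.61 times above KO1, a wider spread within KO than for the lactogens, and the log2 fold change was 2.14 without KO2 and 3.98 without KO1. Its close copy Prl2c5 had 32.0 and 88.1 in the KO libraries and 25.3 and 2.51 in the WT libraries. Prl2c1 had 8.35 and 48.9 in KO1 and KO2 and 2.81 and 1.26 in WT1 and WT2, which rests on 61 reads in KO2 and at most 6 in any other library. Prl2c3, whose coding sequence is 99.6% identical to that of Prl2c2, had no read in any library, and 85.6% of the 50-base words of Prl2c2 occur in another member's transcript. Prl2c reads are therefore best read as a sum, which stood at 406 and 1457 in KO1 and KO2 against 145 and 61.6 in WT1 and WT2 (log2 fold change 3.01). Prl8a1 had 37.6 and 71.3 in the KO libraries, against 14.8 and 1.26 in the WT libraries (log2 3.15 ± 0.97).

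Prl8a2 (decidual prolactin-related protein), Prl6a1 and Prl3c1 are known from the maternal decidua. Prl8a2 had 5952 and 5925 normalised counts in KO1 and KO2, against 6897 in WT1 and 294 in WT2. WT1 stood above both KO libraries and the groups overlapped, with a log2 fold change of 2.06 ± 1.20 that was -0.22 without WT2 and 4.33 without WT1. Prl6a1 had 466 in KO1 and 466 in KO2, against 369 and 26.4 in WT1 and WT2 (2.21 ± 1.01). Prl3c1 had 59.8 and 73.7 in the KO libraries, against 59.0 and 5.03 in the WT libraries (1.83 ± 0.97), so that KO1 and WT1 were nearly equal. Without WT2 the log2 fold change was 0.34 for Prl6a1 and 0.17 for Prl3c1, and without WT1 it was 4.09 and 3.48. Prl8a9 had 1439 and 986 in KO1 and KO2, against 559 and 23.9 in WT1 and WT2 (3.34 ± 1.19, 10.1-fold; adjusted p 1.0 by limma and by DESeq2). It was 1.09 without WT2 and 5.58 without WT1. For Prl3d1 the log2 fold change was 2.04 without WT2 and 2.90 without WT1.

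The spread within WT differed between the members. WT1 stood above WT2 for all 23 tested members, against 51.2% of all tested genes, but by unequal amounts. The ratio was 1.82 for Prl3d1, 2.80 for Prl7a1 and 3.32 for Prl5a1, and it was 23.5 for Prl8a2, 23.4 for Prl8a9, 22.3 for Ceacam10, 14.0 for Prl6a1, 11.7 for Prl3c1 and 11.7 for Prl8a1. A ratio above 10 was seen for 8 members, Psg25 and Prl2c5 among them, against 1.52% of all tested genes. Some of these rest on few WT2 reads. WT1 and WT2 had 21 reads and 1 for Prl8a1, 36 and 2 for Prl2c5, 84 and 4 for Prl3c1, and 3 and 0 for Psg25. The decidual stroma markers, summed, had a WT1 to WT2 ratio of 9.95 and the trophoblast markers 1.79. Single trophoblast markers varied, with Hand1 at 1103 in WT1 and 898 in WT2 and Cts7 at 1247 and 152. Within KO no member had a ratio above 10 in either direction, and KO2 over KO1 was 0.995 for Prl8a2, 1.0 for Prl6a1 and 0.686 for Prl8a9. The part of the decidual signal in these differences was not tested.

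**Figure D2:**
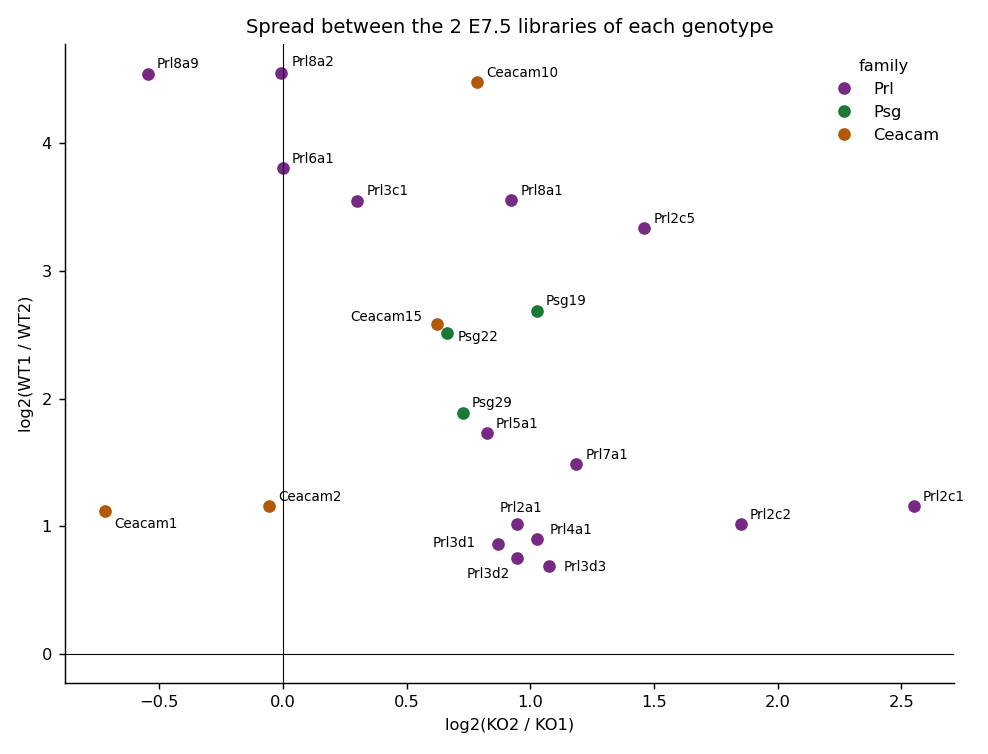
Log2 ratio of KO2 to KO1 (horizontal) and of WT1 to WT2 (vertical) for the tested members, a point per gene coloured by family, without Psg25, which was at 0 in WT2. All points lie above 0 on the vertical axis, and Prl8a9, Prl8a2, Ceacam10 and Prl6a1 lie highest, while the Prl3d genes lie lowest.

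Psg22 and Psg29 were the main Psg genes, together 94.9% and 94.4% of the Psg reads in KO1 and KO2 and 94.1% and 92.9% in WT1 and WT2. Psg22 (ENSMUSG00000044903.15, chr7:18718090-18727248, plus strand) had 842 and 1333 normalised counts in KO1 and KO2, against 179 and 31.4 in WT1 and WT2. Its log2 fold change was 3.80 ± 0.72, or 13.9-fold, with an adjusted p of 0.850 by limma and 8.9e-06 by DESeq2, and its lowest KO library stood 4.72 times above its highest WT library. The log2 fold change was 2.56 without WT2 and 5.03 without WT1. Psg29 had 790.4 and 1308 in the KO libraries, against 247 and 66.6 in the WT libraries (2.97 ± 0.59, 7.85-fold; adjusted p 0.850 by limma, 1.8e-04 by DESeq2). Its log2 fold change was 2.03 without WT2 and 3.91 without WT1. Psg19 had 33.4 and 68.1 in KO1 and KO2, against 16.2 and 2.51 in WT1 and WT2 (2.65 ± 0.87). Psg25 had 22.3 and 38.5 in the KO libraries, against 2.11 and 0 in the WT libraries, where it had 3 reads and 0 reads.

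The other 9 Psg genes had too few reads to test. Together they had 23 reads in KO1 and 63 in KO2, against 12 in WT1 and 4 in WT2. Psg17, whose product binds the tetraspanin CD9, had 10 and 8 reads in the KO libraries, against 6 and 2 in the WT libraries. Psg21 had 5 and 19 reads in KO1 and KO2, against 2 and 0 in WT1 and WT2. Psg26 had 3 and 11 reads in the KO libraries and 0 in each WT library. Psg18, Psg23 and Psg28, close copies of other Psg genes, had reads in KO2 alone, at most 6 each. Psg16, Psg20 and Psg27 had 1 to 12 reads in the libraries where they were seen.

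Ceacam15 was the tested Ceacam gene that stood higher in both KO libraries. It had 991 and 1525 normalised counts in KO1 and KO2, against 316 and 52.8 in WT1 and WT2, a log2 fold change of 3.24 ± 0.73 (9.42-fold; adjusted p 1.0 by limma, 0.00165 by DESeq2). It was 1.96 without WT2 and 4.52 without WT1. Ceacam15 shared no 50-base word with another member's transcript, while genes outside the families were not searched. Ceacam10, known from the decidua of early pregnancy, had 40.4 and 69.7 in KO1 and KO2, against 645 in WT1 and 28.9 in WT2. WT1 stood apart and the groups overlapped, with a log2 fold change of -1.36 ± 1.21 that was 0.86 without WT1 and -3.58 without WT2. Ceacam15 made up 90.9% and 93.1% of the Ceacam reads in the KO libraries and 27.3% and 30.7% in the WT libraries, and Ceacam10 3.70% and 4.26% in KO against 55.7% and 16.8% in WT.

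Ceacam1 and Ceacam2 were the tested members that were lower in both KO libraries. Ceacam1, the receptor of mouse hepatitis virus and a widely expressed adhesion protein, had 51.5 and 31.3 normalised counts in KO1 and KO2, against 147 and 67.8 in WT1 and WT2 (log2 fold change -1.29 ± 0.51, adjusted p 1.0 by limma). Ceacam2 had 4.17 and 4.01 in the KO libraries, against 28.1 and 12.6 in the WT libraries (-1.96 ± 0.84), which are 3 and 5 reads against 40 and 10. The coding sequences of the pair are 90.3% identical, and summed they gave -1.40. Of the other Ceacam genes, 6 had no read and 5 had too few to test, with 2 and 9 reads in all in KO1 and KO2 against 30 and 8 in WT1 and WT2.

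**Figure D3:**
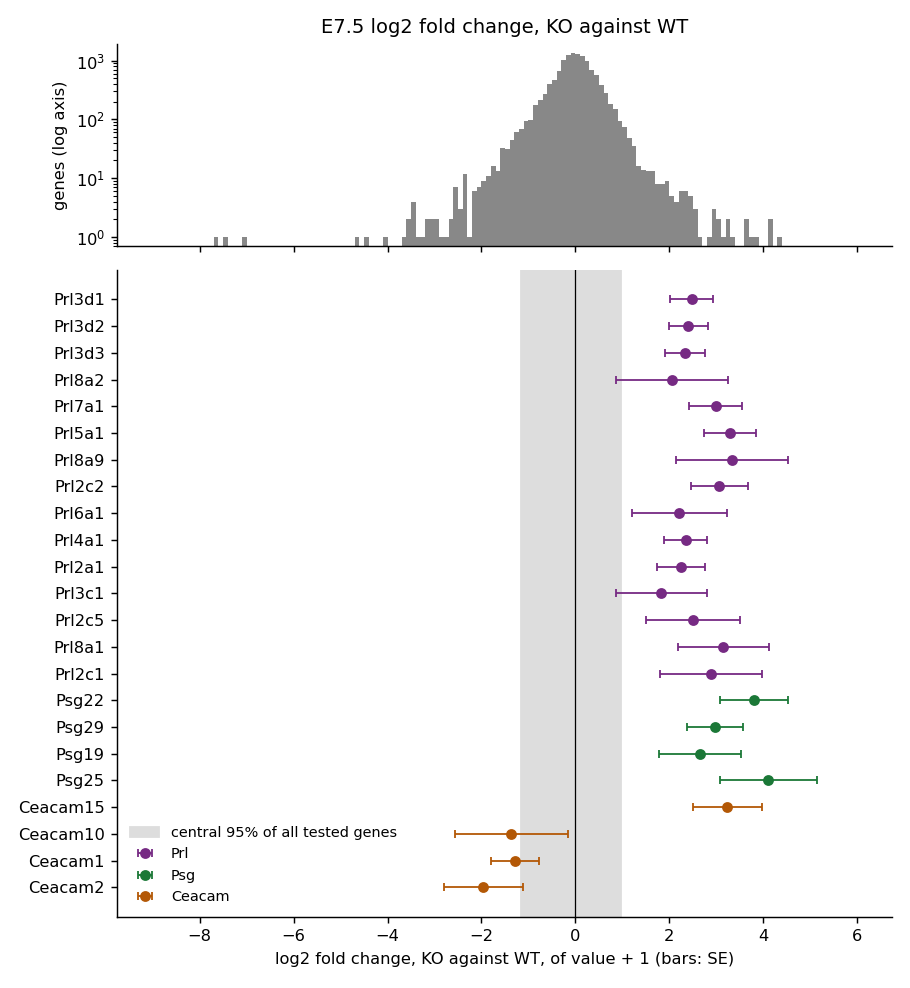
Upper panel, number of tested genes (log axis) by E7.5 log2 fold change of KO against WT; lower panel, log2 fold change with its SE for the 23 tested members, coloured by family, over a grey band that holds the central 95% of all tested genes (-1.16 to 0.97). All Prl and Psg members and Ceacam15 lie to the right of the band, and Ceacam10, Ceacam1 and Ceacam2 lie to its left.

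Per length, as RPKM (reads scaled to the library total and to exon length), Prl3d1 stood at 4057 in KO1 and 7175 in KO2, against 1410.2 in WT1 and 675 in WT2. On this scale the KO means ran from Prl3d1 (5616), Prl3d2 (1572) and Prl3d3 (1076) to Prl8a2 (910.2), Prl7a1 (357), Prl5a1 (257), Prl8a9 (186), Ceacam15 (129.7), Prl2c2 (110.3) and Psg22 (83.4). The spread between the 2 KO libraries was wider than the steps between several neighbours. Prl3d3 and Prl8a2 switched order between KO1 and KO2, as did Prl5a1 and Prl8a9, and Prl8a9 and Ceacam15. So did Ceacam15 and Prl2c2, and Prl2c2 and Psg22, and none of these orders is settled. Prl7a1 stood above Prl5a1 in KO1 (223 against 189.5) and in KO2 (492 against 325). The makeup of the Prl reads also moved between libraries. Prl3d took 73.4% and 78.6% of Prl reads in KO1 and KO2, against 55.6% in WT1 and 88.4% in WT2. Prl8a2 took 12.5% and 7.11% in the KO libraries, against 32.8% in WT1 and 3.92% in WT2.

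Other genes of trophoblast were set beside the families from a list of 43 markers, of which 31 were tested. The list is not independent of earlier results of these data. Its sum stood at 29753 in KO1 and 41536 in KO2, against 16231 in WT1 and 9062 in WT2. The log2 fold change was positive for 24 of the 31, against 48.9% of all tested genes, with a median of 0.41. The KO libraries stood above the WT libraries for 15, against 16.1% of all tested genes, and below for 4, against 12.7%. None passed the limma threshold. Adm, which encodes the vasodilator adrenomedullin, stood at 8494 and 15301 in KO1 and KO2, against 3426 and 1515 in WT1 and WT2. Cts7, a cathepsin of the placental cluster, stood at 5415 and 7451 in the KO libraries, against 1247 and 152 in the WT libraries. Plac1 stood at 2329.5 and 2834 in KO1 and KO2 and 1020.5 and 657 in WT1 and WT2, and Mmp9, a matrix protease of invading trophoblast, at 2901 and 2144 in KO and 877 and 261 in WT. Adm, Cts7, Plac1 and Mmp9 together made up most of the list's sum in KO1 and KO2 but not in WT1 and WT2. The gap between the sums therefore rests largely on these genes. Of the 31 tested markers, 18 were highest in KO2, 3 in KO1, 10 in WT1 and 0 in WT2. Tpbpb, Ctsj, Ctsm, Ctsr, Cts3, Cts6, Ctsll3 and Synb were at 0 reads in all 4 libraries.

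Of 13 transcription factors of trophoblast, 12 are also among the 43 markers. The 13 summed to 4527 in KO1 and 6008 in KO2, against 4476 in WT1 and 3530.3 in WT2, with a median log2 fold change of 0.27 over 12 tested. Hand1, which giant cells need, stood at 949 and 1859.9 in the KO libraries and 1103 and 898 in the WT libraries, and the groups overlapped. Markers of the 20-gene visceral and parietal endoderm list summed to 29042 and 33950.4 in KO1 and KO2 and 26147 and 27015 in WT1 and WT2. Natural killer cell markers of the uterus summed to 127 in KO1 and 8.81 in KO2, against 12.7 and 8.79 in WT1 and WT2. The part that the number of trophoblast or uterine cells in each library had in the family levels was not tested.

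**Figure D4:**
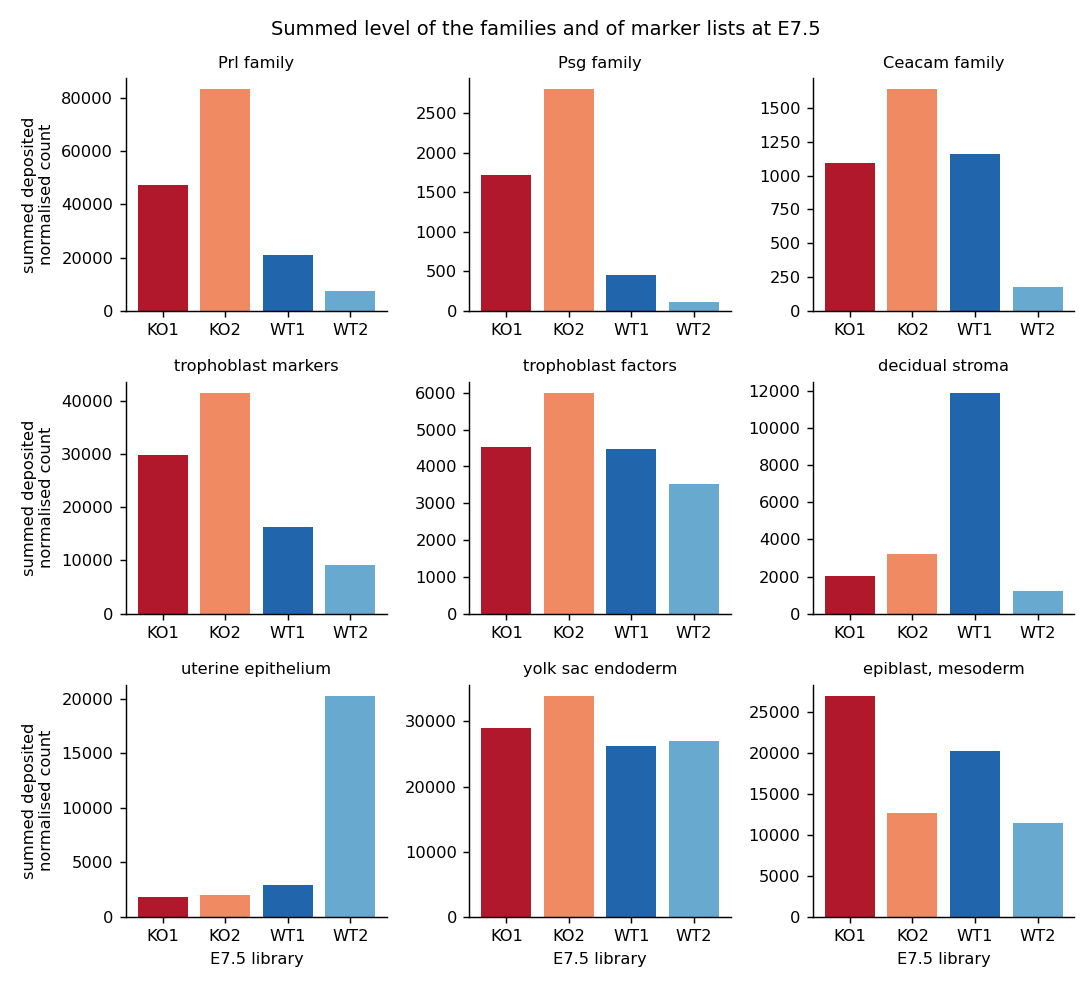
Summed deposited normalised counts in the E7.5 libraries KO1, KO2, WT1 and WT2 of the 3 families (upper row) and of 6 marker lists, each panel with its own axis from 0. The Prl and Psg families and the trophoblast markers are highest in KO2 and lowest in WT2, decidual stroma is highest in WT1 and uterine epithelium in WT2.

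The prolactin receptor and its signalling chain were read for the same embryos. Prlr, the receptor of the placental lactogens, stood at 40.4 and 40.9 normalised counts in KO1 and KO2, against 54.8 and 51.5 in WT1 and WT2. Socs2, a feedback inhibitor of the pathway, stood at 646 and 699.6 in the KO libraries and 604 and 815 in the WT libraries. Of 9 tested genes of the pathway 7 had a positive log2 fold change, with a median of 0.13, and 0 passed the limma threshold (0 at 0.05 unadjusted as well). Of 13 genes known as partners or effectors of Psg and Ceacam proteins, 9 had a positive log2 fold change, with a median of 0.07. Of these 13, 0 passed the limma threshold and 3 had an unadjusted limma p below 0.05. Among all tested genes 48.9% had a positive log2 fold change. An unadjusted limma p below 0.05 was seen for 2.18% of them with KO higher and 0.905% with KO lower. Sdc1, a heparan sulphate carrier on the cell surface, stood at 2171 and 2341 in KO1 and KO2, against 1173 and 729 in WT1 and WT2. Cd9, the receptor of Psg17, stood at 1241 and 2015 in KO and 1485 and 1529 in WT.

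At E8.5 the sorted cells held almost none of these transcripts. The 54 members had 20 to 45 reads in all in the KO libraries and 27 to 29 in the WT libraries, and 41 members had no read. Prl3d1 to Prl3d3 were at 0 reads in all 7 libraries. Only Ceacam1 was tested, with 12.5, 10.4, 11.4 and 20.9 normalised counts in KO1 to KO4, against 21.7, 19.7 and 20.5 in WT1_5s, WT2 and WT3. KO1, KO2 and KO3 stood below every WT library and KO4 among them, with a log2 fold change of -0.59 ± 0.41 (adjusted p 0.857 by limma). Ceacam10 had 0 to 7 reads in the KO libraries and 2 to 10 in the WT libraries.

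Prl3b1, the lactogen of later gestation, was the most abundant prolactin at E8.5. It had 18 reads in KO1 (95% exact Poisson interval 10.7 to 28.4), 2 in KO2 and none in the other KO libraries, against 0 in WT1_5s, 1 in WT2 and 0 in WT3. In the same libraries a list of blood cell and vessel markers, chosen after values were seen, summed to 16738 in KO1 and 25824 in KO2, and it stood at 8.42 for KO3 and 1078 for KO4, against 5.87 to 17.2 in WT. Prl2b1, Prl2c2 and Prl8a2 had 1 read each, all in KO1. KO1 and KO2 carry the code number 128, which no other E8.5 library carries.

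At E9.5 50 members had no read and 2 were tested. Both E9.5 KO libraries carry the code number 171 and both WT libraries 209. Genotype therefore cannot be told apart from whatever this number stands for at E9.5. Ceacam10 had 16.9 and 23.8 normalised counts in KO1 and KO2, against 1.01 and 2.52 in WT1 and WT2, which are 16 and 14 reads against 1 and 5. Its log2 fold change was 2.98 ± 0.98 with an adjusted p of 0.0544 by limma, 0.0523 by edgeR and 0.0899 by DESeq2. With no minimum mean the limma adjusted p was 0.0477, so the call depended on that setting. The log2 fold change was 2.58 without WT1 and 3.39 without WT2. The authors' deposited table lists Ceacam10 at a log2 fold change of 3.47, a standard error of 1.71 and an adjusted p of 0.109. Ceacam1 had 44.3 in KO1 and 8.5 in KO2, against 8.10 in WT1 and 5.05 in WT2 (1.48 ± 1.06, adjusted p 0.285 by limma), so that KO1 stood apart and KO2 lay near the WT libraries. It was 2.61 with an adjusted p of 0.00986 without KO2.

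KO libraries stood above WT libraries for both tested members at E9.5, and so they did for 38.6% of all tested genes, while the limma test called 24.5% of genes higher and 23.0% lower. On the RPM scale Ceacam1 stood at 3.40 and 0.581 in KO1 and KO2, against 1.10 and 0.673 in WT1 and WT2, so that KO2 was then the lowest library. That scaling moved the median log2 fold change of all E9.5 genes by -0.88, and rescaling by TMM factors moved it by -0.15. Ceacam10 stood at 1.30 and 1.63 RPM in KO1 and KO2, against 0.137 and 0.336 in WT1 and WT2. The blood cell and vessel list summed to 270483 in KO1 and 335 in KO2, against 1.01 and 8.58 in WT1 and WT2, and its part in these values was not tested. No Psg gene had a read at E9.5, and the Prl genes had 1 read in all, of Prl2c2 in WT2.

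**Figure D5:**
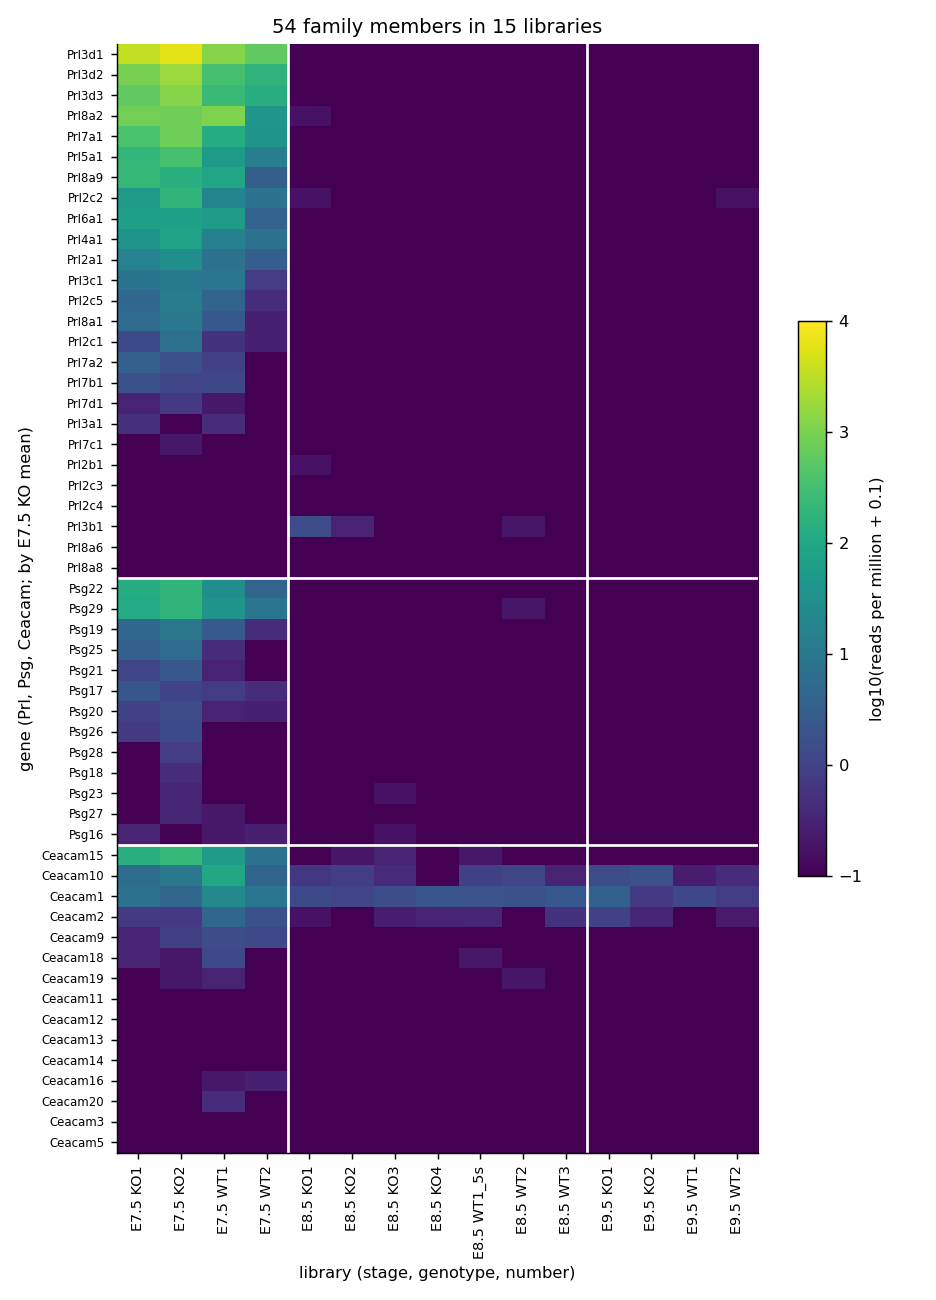
Log10 of RPM plus 0.1 for the 54 members (rows, ordered within family by their E7.5 KO mean) in the 15 libraries (columns, KO left of WT within each stage). The signal of the Prl and Psg families is limited to the E7.5 columns apart from scattered low counts, and Ceacam1, Ceacam2 and Ceacam10 are seen at all 3 stages.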

How the data were processed

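Poly(A)-primed complementary DNA was made from total RNA with the SMART-Seq v4 kit, which does not mark strand, and libraries with Nextera XT, per the labels' protocols. The submitters' processing notes name FastQC 0.11.5, STAR 2.7.0f and the build mm10. No label names a counter, an annotation or a normalising tool. The authors deposited a table of normalised signal for each stage, gene counts divided by 1 factor per library. Their tables of selected genes hold the mean signal, log2 fold changes and p-values, per the file headers. These tables were used for Ceacam10 at E9.5 only, since no other member is in them, and the means in the E7.5 table match the deposited E7.5 values within 1% for only 3 of 3369 genes.

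Dividing each library by the step of its low values gave whole reads for 100% of values, within a tolerance of 0.01. These reads gave the depth of each library, the RPM values and the limits for a count of 0. Columns were mapped to libraries by the code in each sample's description.

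KO was compared with WT within a stage by limma 3.58.1 (R 4.3.3, trended empirical Bayes, two-sided) on log2(value + 1), over all genes with a mean of 10 or more, with Benjamini-Hochberg adjustment at 0.05. EdgeR 4.0.16 and DESeq2 1.42.0 on the recovered reads called 0 and 31 genes at E7.5, and were alternatives, as were other pseudocounts and minimums, TMM rescaling, a block for the replicate number and each library left out. Close copies were also summed, an alternative chosen after seeing the data. The fits were tested on simulated data. Positions, exon lengths and coding sequences came from GENCODE M21 (53 of 54 symbols matched). Every tested member is given with its values. Full tests are given where the higher group mean was 50 or more, and at most 4 genes of a marker list, those with the highest mean, are named beside those a result turns on. Members, lists and tests were chosen with earlier results of these data known.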

Additional observations from a re-analysis of the deposited data

Results flagged for a closer look

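In the E8.5 KO group, Prl3b1 stood at 14.1 normalised counts in KO1, against 2.08, 0 and 0 in KO2, KO3 and KO4. The gap to the next library was 0.852 of the range of the group, above the 95% critical value of Dixon's test for 4 samples. That critical value assumes normal values, which low counts with zeros are not. Every member with 10 or more KO reads was screened, so how often such a gap arises by chance is not known here. The value rests on 18 reads.

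Ceacam1 and Ceacam2 were lower in every KO library than in every WT library at E7.5 and higher in every KO library at E9.5. The log2 difference between KO and WT was -1.29 at E7.5 and 1.48 at E9.5 for Ceacam1, apart by 2.78, and -1.96 and 2.33 for Ceacam2, apart by 4.30. The difference between the stages was not tested, and the stages differ in the cells sampled. At E9.5 Ceacam2 rests on 10 and 2 reads in KO1 and KO2, against 0 and 2 in WT1 and WT2, and on the RPM scale the Ceacam1 groups overlapped.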

How the results depend on the processing

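With 2 libraries a group the E7.5 calls depended on the test. Genes called at E7.5 numbered 0 by limma, 31 by DESeq2, and 12 to 38 with 1 library left out. Of the members, limma called 0, DESeq2 11, and limma 0 to 10 with 1 library left out. Leaving out KO2 is the same fit as keeping code number 239 alone. The other pseudocounts, minimums, TMM rescaling, edgeR and summed copies gave 0 genes and 0 members. Of 89 fits of a tested member with 1 library left out, 87 kept their direction at E7.5. In the other 2, Ceacam10 was 0.86 without WT1 (-3.58 without WT2) and Prl8a2 was -0.22 without WT2 (4.33 without WT1). The cause was not tested. The 216 fits under other settings kept their direction too. Among these, fits with a replicate block or another minimum could not turn, because these settings leave the E7.5 fold change as it was. At E8.5 limma called 0 genes, DESeq2 28, and 0 to 3 were called with 1 library left out. At E9.5 limma called 5700 genes and 1920 to 8689 with 1 library left out. The replicate numbers were not taken as pairs. Deviations of same-numbered libraries correlated at -0.12 at E7.5 and -0.17 at E9.5. With 2 libraries a group the deviations mirror each other, so these values cannot settle a pairing. At E8.5 the values were 0.08, -0.02 and 0.55, and not every library correlated best with its own number. KO4 and WT2, which share the code number 169, correlated at 0.41. With a replicate block the counts were 47 genes (14 members) at E7.5, 678 genes at E8.5 and 5722 at E9.5. With crossed numbers, chosen after seeing the data, they were 48 genes (14 members) at E7.5 and 6665 genes at E9.5. KO4_5s is in none of the fits, and a grouping of copies by protein was not run. Some members fell under the minimum without a library or at a minimum of 100 and have no value there. Members under a mean of 10 were left out by that minimum, and what depth could show for them was not measured. Without a minimum 42 members were tested at E7.5 and 0 called. At E9.5 4 members were tested without a minimum, and Ceacam10 then passed the limma threshold (adjusted p 0.0477).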
